A study of Mus musculus with 12 samples.

Results

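Polycomb repressive complex 2 (PRC2) was followed at the RNA level through 10 genes, which are the rows of the deposited tables for the catalytic subunits *Ezh2* and *Ezh1*, the core subunits *Eed*, *Suz12*, *Rbbp4* and *Rbbp7*, and the accessory subunits *Jarid2*, *Aebp2*, *Mtf2* and *Phf19*. All 10 were found in both tables, among 22911 genes. RNA-Seq was performed on mouse epiblast-like cells (EpiLCs), made from embryonic stem cells (ESCs) by 48 h of culture with FGF2 and Activin A. There were 4 groups of 3 samples. The controls were female *Kdm5c* fl/fl and male *Kdm5c* flY cells, and the mutants were female *Kdm5c* Δ/Δ and male *Kdm5c* ΔY cells. Per the labels all are of the C57BL/6J strain, with the gene given under its other name *Smcx*, as wild type or knockout, while the study describes the floxed strain as kept on a mixed background. *Kdm5c* encodes an X-linked demethylase of histone H3 lysine 4. The Δ allele is made by Cre recombination and lacks the exons of the catalytic JmjC domain, and the control groups carry the unrecombined floxed allele. Per the study, the samples came from separate ESC lines, derived on feeder cells and adapted to medium with inhibitors of MEK and GSK3 before differentiation. The comparisons ask whether PRC2 transcripts differed between *Kdm5c* mutant and control EpiLCs in each sex, whether that difference varied with sex, and whether the controls of the 2 sexes differed.

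PRC2 methylates lysine 27 of histone H3. EZH2 or its paralogue EZH1 holds the catalytic site, EED binds the methylated product and stimulates the enzyme, SUZ12 is the scaffold on which the complex assembles, and RBBP4 and RBBP7 are closely related histone-binding proteins that also serve other chromatin complexes. Accessory subunits divide PRC2 into a form with JARID2 and AEBP2 and a form with one of the Polycomb-like proteins MTF2, PHF19 or PHF1. In pluripotent cells PRC2 holds genes for lineage-specific transcription factors silent, and it is recruited to the inactive X chromosome.

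The tables list a mean normalized count per gene and group, that is, the reads on a gene divided by a size factor of the library and averaged over the 3 libraries. The reads of the single libraries were worked out from these means. They carry no sample names, so the libraries of a group are called A, B and C by falling size factor and cannot be matched to lines. Each library held 5516216 to 11092731 recovered reads. Libraries differed more from each other in the male groups. The mean chi-square per gene between libraries of a group, which is 1 for counting noise alone, was 1.31 to 1.58 among the female pairs, 1.30 between male control A and C and 1.5 between male mutant B and C, but 5.83 to 10.9 in the male pairs that include control B or mutant A. Male control A and C also held reads on genes that were silent elsewhere, with a mean of 1.63 and 1.81 normalized counts over 4982 such genes, against 0.071 to 0.153 in the other 10 libraries. These genes were picked by a mean under 0.5 in the libraries outside the male controls. Only the value of male control B, 0.153, was therefore not set by the choice of genes. The p-values measure the spread between these libraries, which may be partly technical. Among the female libraries, between male control A and C and between male mutant B and C, that spread was little above counting noise. Whether it holds the variation between ESC lines cannot be told. If it does not, a difference between lines and one between genotypes cannot be told apart. *Kdm5c* itself, counted over all its exons, was at 2360 ± 60.7 normalized counts (mean ± SD, n = 3) in female controls, 1453 ± 49.7 in female mutants, 2226 ± 133 in male controls and 1938 ± 39.7 in male mutants. Reads of exons outside the deletion enter these counts, so they do not check the deletion itself.

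Markers of the epiblast state were present in all groups, and all 7 of 7 had reads in every library (*Pou5f1*, *Sox2*, *Otx2*, *Fgf5*, *Dnmt3b*, *Pou3f1* and *Utf1*), with summed levels of 11800 to 11996 normalized counts in female controls, 16258 to 16572 in female mutants, 13930 to 21306 in male controls and 9821 to 12986 in male mutants. These sums hide markers that moved apart. In females *Sox2* was at 331 to 363 normalized counts in controls and 1670 to 1962 in mutants, whereas *Pou5f1* went from 3513 to 3686 down to 3107 to 3163. In males *Otx2* was at 1140 to 1662 in controls and 368 to 430 in mutants, while *Sox2* overlapped (1364 to 2197 and 1944 to 2291). Lists of other cell types also moved with the groups. The 6 markers of primitive and visceral endoderm summed to 381 to 399 normalized counts in female controls and 4487 to 4543 in female mutants, and to 1851 to 4127 in male controls and 762 to 5821 in male mutants, where library A held the lowest value. The 7 feeder fibroblast markers summed to 2253 to 2302, 749 to 813, 560.5 to 824 and 4167 to 4663 in the same order of groups, mostly from *Col1a1* and *Col1a2*, while *Dcn* and *Lum* lay between 0 and 8.78 in every library. The 6 naive markers summed to 642 to 654, 2131 to 2261, 919.8 to 1970.5 and 2976 to 4488. The 5 trophoblast markers summed to 172 to 216, 146 to 162, 116 to 146 and 580.3 to 1384, mostly from *Krt7*, at 479, 1198 and 1141 in male mutants and 68.2 to 99.7 in male controls. *Plac1* and *Ascl2* also lay higher in all male mutants, whereas *Elf5* and the trophoblast gene *Tpbpa* stayed between 0 and 5.75 in every library, with *Tpbpa* at 0 in all female libraries. The part of these cell types in the PRC2 results below was not tested. In bulk RNA, fewer cells that express a gene and less RNA per cell cannot be told apart.

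The 10 genes lie on 7 autosomes and the X chromosome, given here in mm9 with the longest annotated transcript. *Ezh2* is at chr6:47480273-47545340 on the minus strand with 20 exons, and *Ezh1* at chr11:101052429-101087777 on the minus strand with 21. *Eed* (chr7:97103166-97129493, minus strand) has 12 exons and *Suz12* (chr11:79806608-79847625, plus strand) has 16. *Rbbp4* is at chr4:128984344-129012614 on the minus strand. *Rbbp7*, at chrX:159198334-159217024 on the plus strand, is the only X-linked gene of the 10. Of the accessory subunits, *Jarid2* is at chr13:44824843-45017012, *Mtf2* at chr5:108494693-108538023 and *Aebp2* at chr6:140570970-140626993, all on the plus strand, and *Phf19* is at chr2:34749277-34769546 on the minus strand. A read of 50 bp is unique in the genome from 96.4 to 99.3% of the exonic positions of the other 9 genes but from 76.7% of those of *Rbbp7*, so its level is counted over less sequence. Exons on the opposite strand overlap *Rbbp4* over 1578 bp, *Mtf2* over 395 bp, *Suz12* over 178 bp and *Ezh2* and *Rbbp7* over 174 bp each. The libraries were strand-specific, but the strand setting of the counting is not given in the sources used here, so a share of reads from those partners cannot be told apart.

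The promoters of the 2 genes that rose most and of the 2 that fell in female mutants, as described below, are shown to set the sequences beside the changes. They are the 250 bases before the transcription start from RefSeq (GRCm38.p6, a later build than that of the tables), read 5′ to 3′ on the strand of the gene, with CpG dinucleotides in capitals. For *Jarid2* (chr13:44730524-44730773, plus strand) and *Mtf2* (chr5:108065424-108065673, plus strand) the first of 2 annotated starts is given.
Jarid2: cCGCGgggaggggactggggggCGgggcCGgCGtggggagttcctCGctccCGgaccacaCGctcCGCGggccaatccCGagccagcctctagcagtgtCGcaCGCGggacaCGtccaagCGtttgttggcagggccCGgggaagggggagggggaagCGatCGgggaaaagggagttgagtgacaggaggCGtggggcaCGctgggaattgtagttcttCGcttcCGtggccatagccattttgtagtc
Mtf2: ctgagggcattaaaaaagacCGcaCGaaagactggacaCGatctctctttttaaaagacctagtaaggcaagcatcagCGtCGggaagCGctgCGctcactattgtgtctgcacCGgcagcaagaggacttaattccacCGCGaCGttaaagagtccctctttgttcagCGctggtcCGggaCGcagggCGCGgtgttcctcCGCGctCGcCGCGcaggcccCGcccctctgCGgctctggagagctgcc
Ezh2: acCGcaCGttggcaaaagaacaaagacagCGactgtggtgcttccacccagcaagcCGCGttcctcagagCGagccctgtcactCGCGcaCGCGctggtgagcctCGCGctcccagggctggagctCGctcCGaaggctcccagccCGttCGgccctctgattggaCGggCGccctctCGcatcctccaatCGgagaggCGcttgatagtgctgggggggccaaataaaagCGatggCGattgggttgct
Rbbp7: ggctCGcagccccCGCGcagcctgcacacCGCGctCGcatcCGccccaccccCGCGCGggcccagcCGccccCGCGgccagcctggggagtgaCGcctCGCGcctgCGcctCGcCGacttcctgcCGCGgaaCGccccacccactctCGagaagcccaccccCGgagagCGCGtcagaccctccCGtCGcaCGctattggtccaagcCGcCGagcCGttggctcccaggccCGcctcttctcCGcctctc
*Ezh2* lies at chr6:47595031-47595280 on the minus strand and *Rbbp7* at chrX:162760122-162760371 on the plus strand. The windows of *Jarid2*, *Mtf2* and *Ezh2* each hold 23 CpG dinucleotides and that of *Rbbp7* holds 34. Over the 14 windows that RefSeq gives for the 10 genes the median was 22.5, and over all 32851 windows of this length it was 6. All 4 windows shown thus lay above the median of all windows. Binding sites of E2F factors were searched as TTTGGCGC, TTTCGCGC and TTTCCCGC on both strands. Only the windows of *Suz12* and *Phf19* held one, the last of the 3, at 219 and 208 bases before the start, and 1.53% of all windows held any of them. A match of letters is a description of the sequence and not a bound site.

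Levels of the subunits were first compared with each other per length, as normalized reads per kb of the longest transcript. *Rbbp7* was highest in all 4 groups, at 3138 ± 97.8 per kb in female controls, and *Phf19* lowest, at 16.5 ± 3.01 per kb. Between them in female controls came *Ezh2* at 826 ± 35.3, *Rbbp4* at 623 ± 21.6, *Eed* at 602 ± 42.2, *Suz12* at 404 ± 3.65, *Jarid2* at 398 ± 14.7, *Mtf2* at 390 ± 14.2, *Aebp2* at 141 ± 16.8 and *Ezh1* at 81.3 ± 5.64 reads per kb. *Rbbp4* and *Eed* lay within their SDs of each other, and so did *Suz12*, *Jarid2* and *Mtf2*. *Aebp2*, *Ezh1* and *Phf19* held places 8, 9 and 10 in every group. In female mutants the order in the middle changed: *Eed* was at 843 ± 18.3, *Jarid2* at 797 ± 27.7, *Rbbp4* at 677 ± 24.5, *Ezh2* at 639 ± 38.4, *Mtf2* at 559 ± 13.0 and *Suz12* at 467 ± 29.4 reads per kb. *Ezh2* thus moved from place 2 to place 5 and *Jarid2* from place 6 to place 3, with *Rbbp4* and *Ezh2* within their SDs. In male controls *Ezh2* was at 672 ± 16.6 per kb, *Eed* at 556 ± 9.88, *Rbbp4* at 550 ± 78.0, *Mtf2* at 492 ± 17.8, *Jarid2* at 468 ± 40.9 and *Suz12* at 393 ± 35.5, and *Ezh1* stood at 132 ± 20.9. In male mutants *Ezh2*, *Eed*, *Rbbp4*, *Suz12*, *Jarid2* and *Mtf2* lay between 663 ± 41.8 and 560 ± 23.3 reads per kb, and neighbours in that order lay within their SDs. The order depends on the length used: per kb of all annotated exons, *Ezh2* held place 4 in female controls instead of 2. It then held place 7 instead of 5 in female mutants, 6 instead of 2 in male controls and 7 instead of 2 in male mutants.

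**Figure D1:**
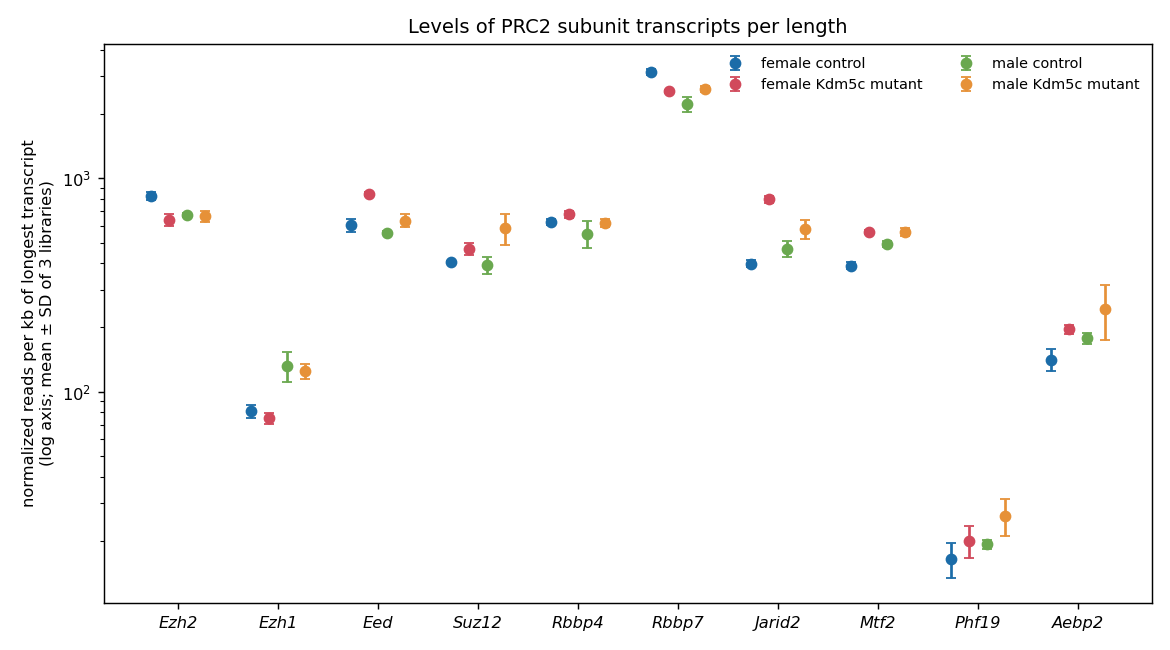
Normalized reads per kb of the longest transcript (log axis) for the 10 PRC2 genes, with the mean and SD of 3 libraries in each of the 4 groups. *Rbbp7* is highest and *Phf19* lowest in every group, and *Ezh1* lies below *Ezh2* in every group.

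In females, PRC2 transcripts moved in both directions in the mutants. *Jarid2* doubled in level and *Mtf2*, *Eed* and *Aebp2* rose by about the same smaller amount, *Suz12* rose slightly, and *Ezh2* and *Rbbp7* fell. Of the 10 genes, 7 passed an adjusted p of 0.05 in limma, 5 higher and 2 lower, where 50.1% of the 19572 genes tested passed (25.4% higher and 24.7% lower). A call was thus common among all genes in this comparison. Their median log2 fold change was 0.24, against 0.0037 over all genes tested. For 8 of the 10 the 3 mutant libraries did not overlap the 3 controls, as for 54.8% of all genes tested. An exact permutation test of 3 libraries against 3 cannot give less than p = 0.1 (two-sided), and it gave that for these 8.

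*Ezh2*, the main H3K27 methyltransferase of proliferating cells, was counted at 2218, 2085 and 2266 normalized reads in female controls A, B and C and at 1577, 1759 and 1746 in female mutants. Every mutant library lay below every control. The log2 fold change was -0.37 ± 0.06 (SE; limma adjusted p = 3.6e-05), a ratio of 0.773. *Ezh1*, the paralogue with weaker catalytic activity, was at 321, 368 and 338 in controls and 308, 302 and 336 in mutants. These values overlapped, and the fold change of -0.12 ± 0.08 on the log2 scale did not pass the test (adjusted p = 0.24).

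*Eed*, the subunit that reads methylated H3K27, was at 1343, 1193 and 1191 normalized reads in female controls and at 1701, 1775 and 1748 in mutants. The groups stood well apart, with a log2 fold change of 0.49 ± 0.06 (adjusted p = 1.6e-06) or 1.40-fold. *Suz12*, the scaffold, was nearly constant in controls at 1786, 1756 and 1761, and lay at 1897, 2141 and 2091 in mutants. The lowest mutant library was above the highest control, by a small margin. Its log2 fold change of 0.21 ± 0.06 passed within the female libraries (adjusted p = 0.0053) but not when the spread was taken from all 12 libraries (adjusted p = 0.21). The 3 core genes *Ezh2*, *Eed* and *Suz12* therefore did not move as a unit in females.

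The histone-binding pair also moved apart. *Rbbp7* was at 7282, 6851 and 6994 normalized reads in female controls and at 5838, 5756 and 5647 in mutants, with no overlap. It fell by 0.29 ± 0.05 on the log2 scale (adjusted p = 0.00011), to 0.816 of the control level. *Rbbp4* was at 2642, 2770 and 2827 in controls and 3070, 2864 and 3022 in mutants. Its mutant libraries all lay higher, but the log2 fold change of 0.12 ± 0.05 did not pass (adjusted p = 0.073).

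Among the accessory subunits, *Jarid2* showed the largest change of the 10 genes. JARID2 carries the fold of a JmjC protein without demethylase activity and helps PRC2 to bind chromatin. It was at 2488, 2321 and 2355 normalized reads in female controls and at 4586, 4889 and 4856 in mutants, a log2 fold change of 1.00 ± 0.05 (adjusted p = 3.7e-11). Every mutant library lay far above every control. *Aebp2*, a zinc finger protein of the same form of PRC2, was at 947, 750 and 819 in controls and 1132, 1231 and 1138 in mutants, without overlap, and rose by 0.48 ± 0.07 (adjusted p = 2.5e-05). With the spread taken from all 12 libraries its adjusted p in limma was 0.046, just under the threshold. *Mtf2*, the Polycomb-like protein that binds CpG-rich DNA, was at 1605, 1626 and 1518 in controls and 2254, 2329 and 2227 in mutants, and rose by 0.52 ± 0.05 (adjusted p = 2.1e-07) or 1.43-fold. Subunits of both forms of the complex thus rose. *Phf19*, a second Polycomb-like protein, was low in all libraries, at 60.4, 73.6 and 51.1 in controls and 61.9, 74.9 and 87.9 in mutants. Its groups overlapped and it did not pass the test (0.28 ± 0.18, adjusted p = 0.22).

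**Figure D2:**
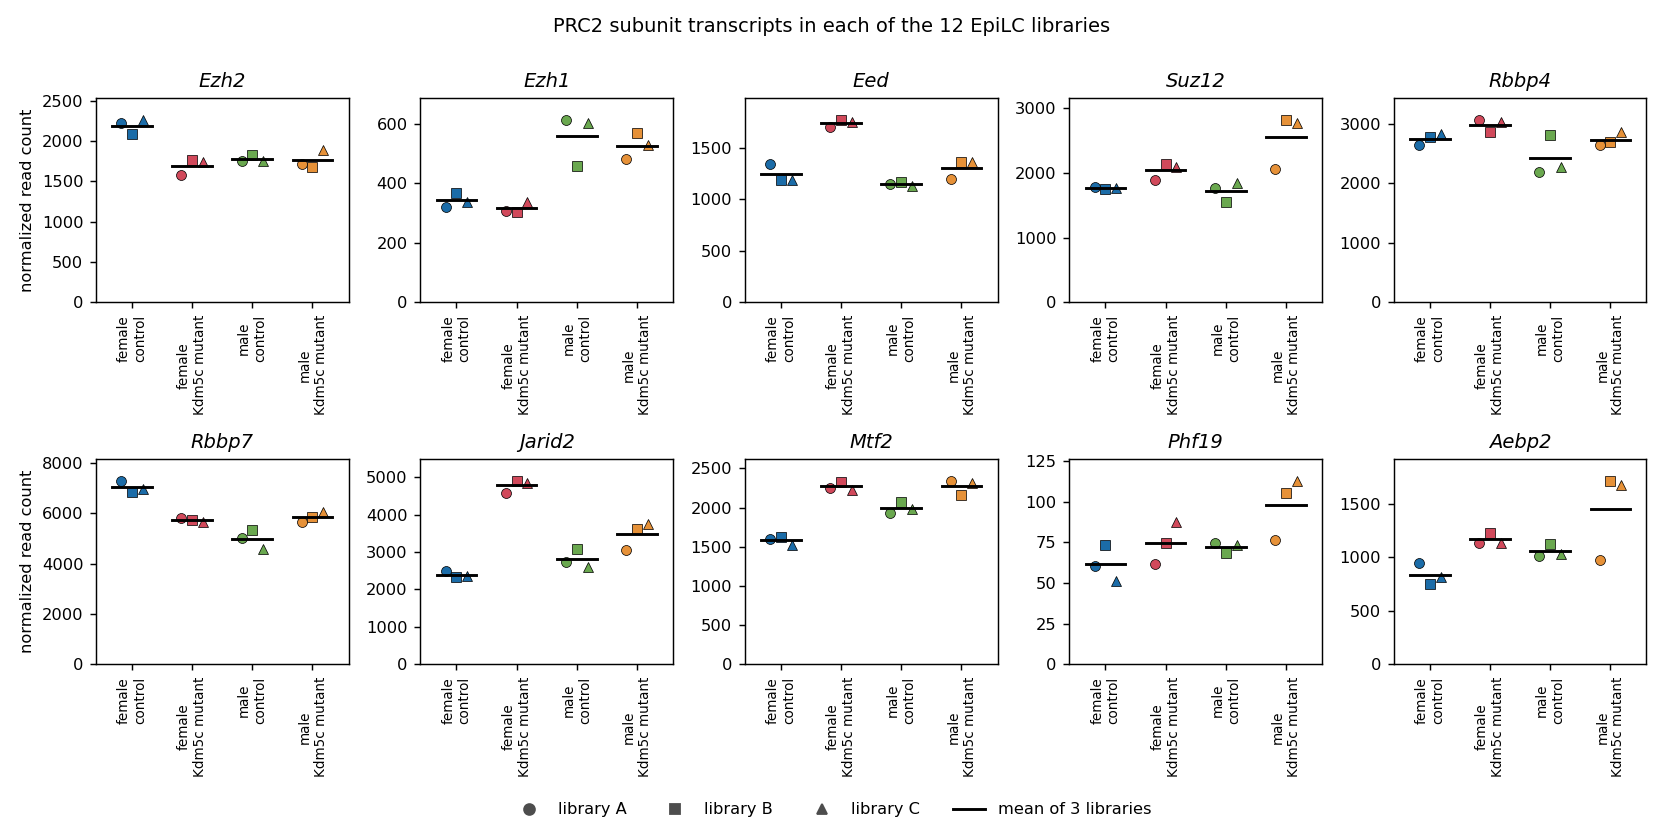
Normalized read count of each PRC2 gene in each of the 12 libraries (vertical axes from 0; circles, squares and triangles are libraries A, B and C, and the line is the mean of 3). In females *Jarid2*, *Mtf2*, *Eed*, *Aebp2* and *Suz12* lie higher in all 3 mutant libraries and *Ezh2* and *Rbbp7* lower, and in male mutants library A lies below B and C for 8 of the 10 genes, all but *Ezh2* and *Mtf2*.

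In males, fewer differences exceeded the spread. The median log2 fold change of the 10 genes was 0.21, against -0.16 over all genes tested. Against male control B alone the median over all genes was 0.02. It was then 0.15 for the 6 catalytic and core genes and 0.25 for the 4 accessory genes, against 0.18 and 0.36 with all male controls. *Suz12* was higher in mutants and was the only 1 of the 10 genes to pass, where 7.8% of the 21872 genes tested passed (4.21% higher and 3.59% lower). It was at 1773, 1546 and 1842 normalized reads in male controls and at 2068, 2825 and 2774 in male mutants. The groups did not overlap, with mutant library A nearest to the controls. The log2 fold change was 0.56 ± 0.15, 1.47-fold (limma adjusted p = 0.047). This call stood at the threshold. Without mutant A the adjusted p was 0.0018, and without any other single library it was 0.078 to 0.19. Leaving out male controls A and C, which hold reads on silent genes, leaves 1 control library, B, which stood apart from both, and takes the spread from the 3 mutant libraries. That fit of 1 control against 3 mutants gave 0.34 for *Suz12* and 0 of all 19038 genes passed in limma (2803 at an unadjusted p under 0.05), so it does not show whether the male calls depend on A and C.

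*Jarid2* was at 2738, 3077 and 2600 normalized reads in male controls and 3060, 3611 and 3746 in male mutants. Mutant A overlapped control B, and the log2 fold change of 0.31 ± 0.12 did not pass (adjusted p = 0.17). *Aebp2* was at 1015, 1125 and 1030 in controls and at 972, 1712 and 1675 in mutants, so that library A lay below all controls and B and C far above them (0.41 ± 0.20, adjusted p = 0.23). Without mutant A both passed, *Jarid2* at 0.39 (adjusted p = 0.030) and *Aebp2* at 0.68 (adjusted p = 0.0015). Library A is also the one of the male mutants with the lowest sum of endoderm markers (762 normalized counts against 5698 and 5821) and of trophoblast markers (580.3 against 1384 and 1335). Its sum of naive markers was the lowest as well (2976 against 4479 and 4488), and its sum of epiblast markers the highest (12986 against 9857 and 9821). The part of those cell types and states in the *Aebp2*, *Suz12* and *Jarid2* values was not tested.

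The other 7 genes did not pass in males. *Ezh2* was at 1754, 1832 and 1758 normalized reads in male controls and 1720, 1673 and 1885 in male mutants, which overlapped, with a log2 fold change of -0.02 ± 0.11 (adjusted p = 0.92). *Eed* was at 1148, 1170 and 1130 in controls and at 1202, 1361 and 1364 in mutants, all of them higher, with a fold change of 0.19 ± 0.11 (adjusted p = 0.31). *Rbbp7* was at 5033, 5339 and 4582 in controls and 5670, 5864 and 6074 in mutants, again all higher, with 0.24 ± 0.11 (adjusted p = 0.22). For *Eed* and *Rbbp7* the groups thus stood apart, but by too little for the spread of the male libraries to pass the test. *Mtf2* was at 1936, 2077 and 1979 in controls and 2336, 2164 and 2318 in mutants (0.19 ± 0.10, adjusted p = 0.29). *Phf19* was at 74.8, 68.2 and 73.3 in controls and 76.3, 105 and 113 in mutants (0.42 ± 0.22, adjusted p = 0.27). Both had every mutant library above every control. For 5 of the 10 genes the male groups did not overlap, as for 26.5% of all genes tested. *Rbbp4* was at 2184, 2817 and 2268 in controls and 2640, 2691 and 2867 in mutants (0.18 ± 0.13, adjusted p = 0.38). *Ezh1* was at 613, 456 and 602 in controls and 481, 569 and 526 in mutants (-0.07 ± 0.15, adjusted p = 0.76). Control B was the highest control for *Rbbp4* and the lowest for *Ezh1*, and the groups overlapped for both.

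**Figure D3:**
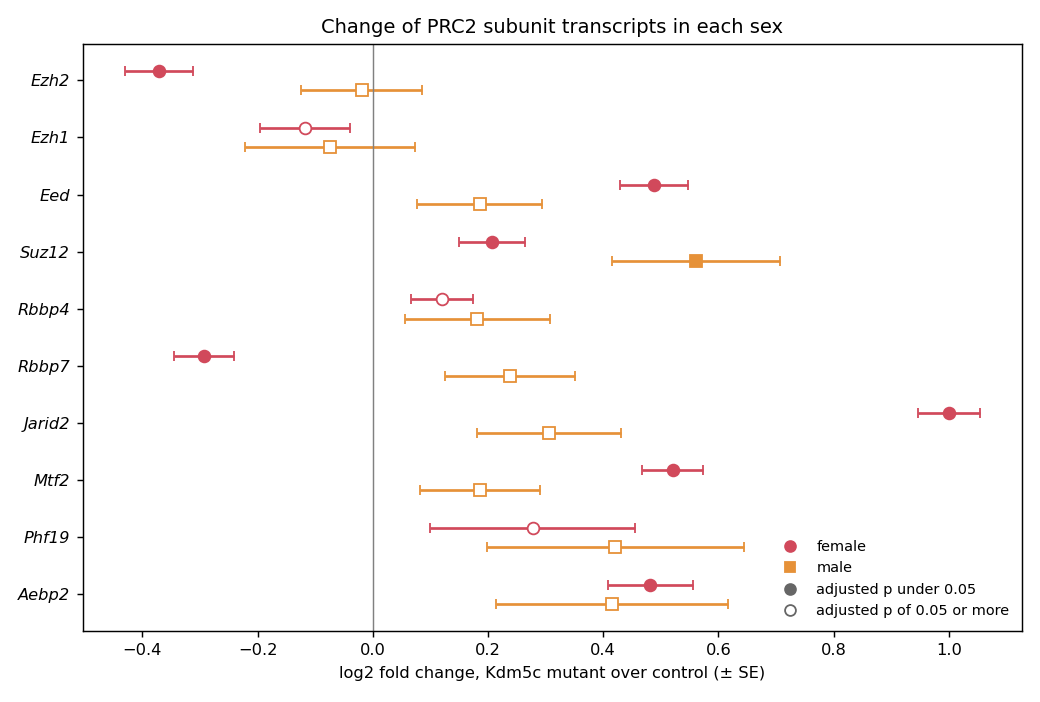
Log2 fold change (± SE from limma) of each PRC2 gene in *Kdm5c* mutant over control EpiLCs of each sex. Filled symbols passed an adjusted p of 0.05, which 7 genes did in females and *Suz12* alone did in males.

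The difference between the sexes was tested itself, as the change in males minus that in females over all 12 libraries. It passed for 4 of the 10 genes, where 21.2% of the 22014 genes tested passed. The median of this difference over all genes was -0.20, and 0.021 with male control B alone. *Jarid2* changed less in males, with a difference of -0.69 ± 0.13 on the log2 scale (adjusted p = 0.0020). *Rbbp7*, which fell in females and did not pass in males, differed by 0.53 ± 0.11 (adjusted p = 0.0041). Both passed without each library in turn. *Ezh2* (0.35 ± 0.11, adjusted p = 0.038) and *Mtf2* (-0.33 ± 0.10, adjusted p = 0.031) passed in the fit over all libraries but in only 4 of the 12 fits that leave out 1 library, with adjusted p-values up to 0.10 and 0.088. *Eed* (-0.30 ± 0.11, adjusted p = 0.073) and *Suz12* (0.35 ± 0.16, adjusted p = 0.14) did not pass. For *Suz12*, which passed in each sex, no difference between the sexes was shown, except without male mutant A (0.50, adjusted p = 0.0040).

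Control EpiLCs of the 2 sexes also differed in PRC2 transcripts. Of the 10 genes, 4 passed, where 21.5% of the 22014 genes tested passed. The median log2 difference over all genes was -0.17, and 0.0 against male control B alone. *Ezh1* was lower in female controls, at 321 to 368 normalized reads against 456 to 613 in male controls, a log2 difference of -0.69 ± 0.12 (adjusted p = 0.0012). *Rbbp7*, the X-linked gene, was higher in female controls, at 6851 to 7282 against 4582 to 5339, by 0.50 ± 0.08 (adjusted p = 0.00070) or 1.42-fold. *Mtf2* was lower in female controls (-0.34 ± 0.07, adjusted p = 0.0050) and *Ezh2* higher (0.30 ± 0.08, adjusted p = 0.017). The first 3 passed in all 12 fits that leave out 1 library and *Ezh2* in 8 of them. Each of these fits keeps male control A, male control C or both. *Suz12* (0.04 ± 0.11) and *Eed* (0.11 ± 0.08) did not pass. Against male control B alone, with the spread assumed to be that of the other groups, the differences were 0.40 for *Rbbp7*, -0.39 for *Mtf2*, -0.42 for *Ezh1* and 0.26 for *Ezh2*. The changes in female mutants and the control differences share the female controls, and the sex difference of the change rests on all controls. For *Rbbp7*, *Ezh2* and *Mtf2* these results are therefore no independent observations. *Rbbp7* was at 5747 ± 95.9 in female mutants, 5869 ± 202 in male mutants and 4984 ± 381 in male controls. In the same order *Ezh2* was at 1694 ± 102, 1759 ± 111 and 1781 ± 44.1, and *Mtf2* at 2270 ± 52.8, 2273 ± 94.4 and 1997 ± 72.2.

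Ratios of subunits within a library do not depend on its size factor. They were added after the values had been seen and are descriptions of the same reads. The size of a ratio depends on the length used, here that of the longest transcript. Per kb of all annotated exons *Eed* lay above *Ezh2* already in female controls (560 against 353). The order of the libraries in a ratio of 2 genes does not depend on length. Per kb, *Eed* stood to *Ezh2* as 0.729 ± 0.052 in female controls, 1.32 ± 0.055 in female mutants, 0.829 ± 0.010 in male controls and 0.957 ± 0.077 in male mutants. In each sex all 3 mutant libraries lay above all controls (exact permutation p = 0.1, the smallest possible). The ratio of *Jarid2* to *Suz12* was 0.985 ± 0.027 in female controls and 1.71 ± 0.050 in female mutants, but 1.20 ± 0.22 in male controls and 0.999 ± 0.074 in male mutants, where the libraries overlapped. The ratio of *Mtf2* to *Suz12* went from 0.965 ± 0.035 to 1.20 ± 0.070 in females and from 1.26 ± 0.16 to 0.981 ± 0.21 in males, again with overlap in males. *Jarid2* made up 42.1% ± 0.654 of the reads per kb of the 4 accessory subunits in female controls and 50.7% ± 0.718 in female mutants, against 40.4% ± 1.37 and 41.0% ± 0.736 in males. *Ezh1* made up 8.99% ± 0.892 of *Ezh1* and *Ezh2* together in female controls and 10.5% ± 0.648 in female mutants, and 16.5% ± 2.52 and 15.9% ± 1.53 in male controls and mutants. The 6 female libraries thus all lay below the 6 male libraries in the share of *Ezh1*. *Rbbp7* made up 83.4% ± 0.854 of the histone-binding pair in female controls, 79.1% ± 0.625 in female mutants, 80.2% ± 1.57 in male controls and 80.8% ± 0.218 in male mutants.

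**Figure D4:**
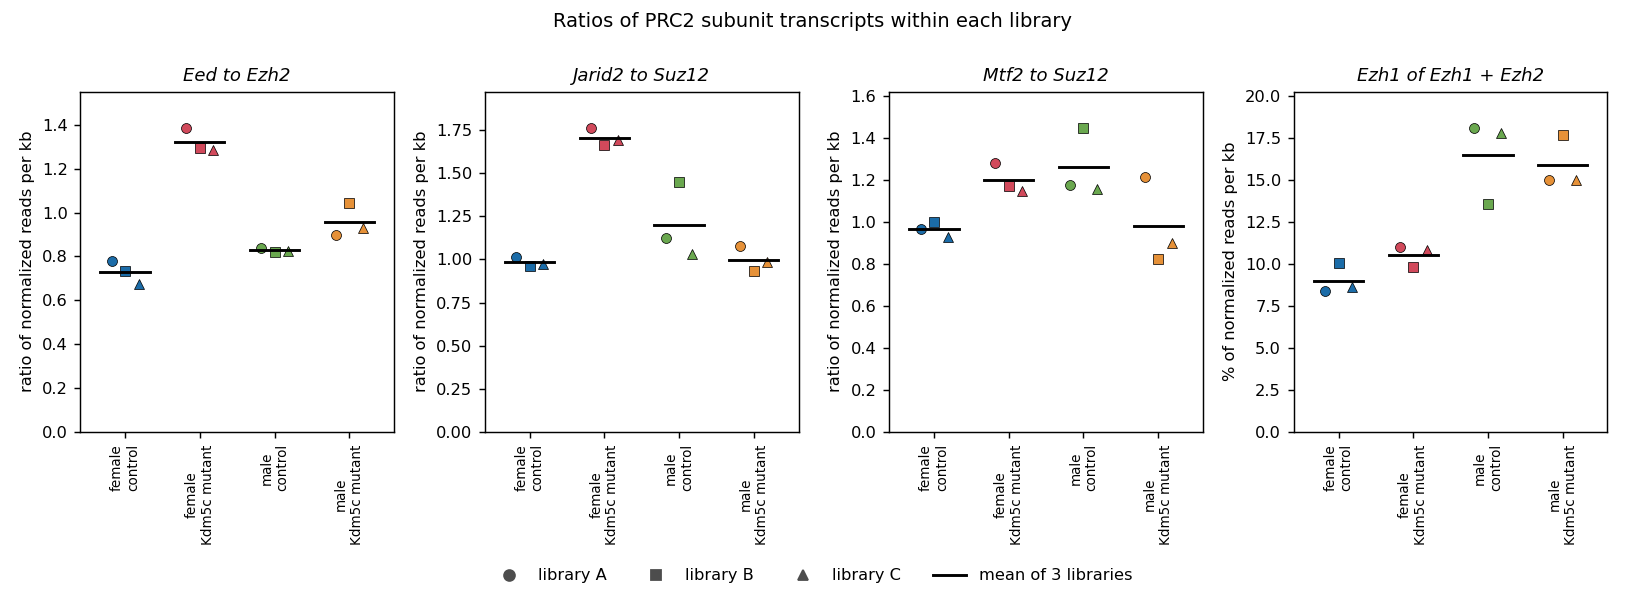
Ratios of PRC2 transcripts within each library, from normalized reads per kb of the longest transcript, with vertical axes from 0. Circles, squares and triangles are libraries A, B and C, and the line is the mean of 3. *Eed* to *Ezh2* is higher in all mutant libraries of each sex, whereas *Jarid2* to *Suz12* is higher in all female mutant libraries and overlaps in males, and the share of *Ezh1* separates the sexes.

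The patterns over the 12 libraries most like those of the core genes were looked up among the 9701 genes whose mean reached 100. For *Ezh2* they were *Kif22* (Pearson r = 0.93), *Fyn* (0.91) and *Svil* (0.91), all highest in female controls. For *Eed* they were *Tex15* (0.98), *Mbnl1* (0.97) and *Larp4* (0.97), all highest in female mutants. For *Suz12* they were *Tspan9* (0.97), *Arih2* (0.97) and *Ptbp3* (0.97), all highest in male mutants. The points are libraries that share group and normalization, so these are descriptions.

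The other partners of PRC2 were read from a list of 5. In females 4 passed, 2 higher and 2 lower, beside 50.1% of all genes, with a median log2 fold change of 0.20. *Lcor* rose by 0.73 ± 0.13 (adjusted p = 9.4e-05) and *Lcorl* fell by 0.83 ± 0.07 (adjusted p = 9.3e-09), both genes that also encode PALI proteins of the complex. *Epop*, which joins the Polycomb-like form and is listed as *E130012A19Rik*, rose by 0.51 ± 0.07 in females (adjusted p = 9.6e-06). In males it rose by 0.63 ± 0.17 (adjusted p = 0.048), the 1 gene of this list to pass there, beside 7.8% of all genes, with an adjusted p of up to 0.19 once a library was left out. The gene of the PRC2 inhibitor EZHIP, listed as *AU022751*, fell by 0.70 ± 0.10 in females (adjusted p = 1.1e-05) and was at -0.04 ± 0.22 in males (adjusted p = 0.93). *Phf1*, the third Polycomb-like gene, was at 0.20 ± 0.13 in females and 0.33 ± 0.18 in males and passed in neither (adjusted p = 0.23 and 0.28).

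PRC1 is the other Polycomb complex, which ubiquitinates histone H2A. Of the 14 genes of its core and canonical form, 5 passed in females, 2 higher and 3 lower, beside 50.1% of all genes, and 4 in males, 2 higher and 2 lower, beside 7.8%. *Scml2*, an X-linked Polycomb gene, was at 749 to 794 normalized reads in female controls and 118 to 134 in female mutants, and at 885 to 937 in male controls and 50.3 to 94.3 in male mutants, a log2 fold change of -2.58 ± 0.08 (adjusted p = 1.3e-14) and -3.59 ± 0.22 (adjusted p = 9.6e-05). *Phc2* moved in opposite directions, at -0.49 ± 0.08 for females (adjusted p = 4.7e-05) against 1.35 ± 0.15 for males (adjusted p = 0.0014), and the difference itself passed (1.85, adjusted p = 5.4e-06). *Bmi1* was at 0.27 ± 0.11 in females (adjusted p = 0.042) and -0.64 ± 0.15 in males (adjusted p = 0.032). *Pcgf2* rose in females (0.44 ± 0.06, adjusted p = 1.6e-05), *Phc3* fell in females (-0.27 ± 0.09, adjusted p = 0.018) and *Ring1*, a ubiquitin ligase of the complex, rose in males (0.72 ± 0.19, adjusted p = 0.047). Of these male calls, those of *Scml2* and *Phc2* held without each library in turn.

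Of the 14 genes of variant PRC1, 6 passed in females, 4 higher and 2 lower, and 1 in males, beside the same 50.1% and 7.8% of all genes. *Kdm2b*, whose product binds unmethylated CpG sequence, fell by 0.61 ± 0.05 in females (adjusted p = 2.1e-08) and *Rybp* rose by 0.60 ± 0.06 (adjusted p = 6.8e-08). *Bcor* rose by 0.37 ± 0.06 in females (adjusted p = 5.9e-05). Its rise in males was 0.83 ± 0.20 (adjusted p = 0.038, up to 0.17 without a library). *L3mbtl2* (0.34 ± 0.07), *Dcaf7* (0.24 ± 0.07) and *Yaf2* (-0.28 ± 0.09) were the others to pass in females. Of the 8 genes of the H2A deubiquitinase, 3 passed in females, all lower, beside 24.7% of all genes that passed as lower (*Mbd6*, *Foxk1* and *Asxl1*, from -0.26 to -0.17), and 0 in males by limma, with 1 at an unadjusted p under 0.05. Of the 3 genes in the list of H3K27 demethylases and their relatives, *Kdm6b* fell in females (-0.32 ± 0.08, adjusted p = 0.0019), while *Kdm6a* was at -0.09 ± 0.06 (adjusted p = 0.21). The Y-linked *Uty* was at 3.25 ± 1.22 and 3.57 ± 1.32 normalized reads in female controls and mutants. In males *Kdm6a* was at 0.0018 ± 0.14, *Kdm6b* at 0.18 ± 0.11 and *Uty* at -0.14 ± 0.19 on the log2 scale, and 0 of the 3 passed in limma or at an unadjusted p under 0.05. Of 5 methyltransferases of H3K36, a mark that hinders PRC2, *Nsd1* (0.57 ± 0.05, adjusted p = 4.7e-08) and *Setd2* (0.31 ± 0.06, adjusted p = 0.00019) rose and *Whsc1* fell (-0.18 ± 0.06, adjusted p = 0.011) in females. *Whsc1l1* (-0.08 ± 0.06) and *Ash1l* (-0.11 ± 0.06) did not pass. Of the 5, 0 passed in males by limma or limma voom, with 1 and 3 at an unadjusted p under 0.05. In females the calls of *Bmi1*, *Phc3*, *Dcaf7*, *Yaf2*, *Mbd6*, *Foxk1* and *Asxl1* were each lost without 1 of the libraries or more (adjusted p up to 0.17).

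Genes of lineage regulators that PRC2 is known to hold silent in ESCs were read from a list of 36, of which 19 passed in females, 8 higher and 11 lower, and 7 in males, 6 higher and 1 lower. Beside them stand the 50.1% and 7.8% of all genes that passed. The median log2 fold change was -0.13 in females and 0.19 in males, against 0.0037 and -0.16 over all genes. Against male control B alone the 2 male medians were 0.49 and 0.02. Of the 36 genes, 20 had a mean of 10 or more in females and 24 in males, so the medians rest in part on genes with few reads. With limma voom the medians of the list were -0.30 in females and 0.22 in males. Among those with a mean of 10 or more, the largest rises in females were those of the endoderm regulators *Gata6* (4.09 ± 0.11), *Gata4* (3.63 ± 0.10), *Sox17* (3.51 ± 0.13) and *Foxa2* (3.12 ± 0.24), and the largest falls those of *Hoxb1* (-4.24 ± 0.44) and *T* (-3.09 ± 0.30), a gene of the primitive streak. The summed endoderm markers given above moved with the first 4 of these. In males *Hand1* (4.68 ± 0.34, adjusted p = 0.00014) and *Gata2* (4.04 ± 0.42, adjusted p = 0.00093) rose and passed without each library in turn, and of the 5 trophoblast markers *Krt7*, *Plac1* and *Ascl2* moved with them but *Elf5* and *Tpbpa* did not. *Gata3* (2.83 ± 0.61), *Nkx2-5* (2.05 ± 0.54), *Cdkn2a* (1.01 ± 0.17) and *Sox17* (-2.14 ± 0.56) passed over the 6 libraries but not without each in turn. The part of endoderm and trophoblast cells in these values was not tested.

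**Figure D5:**
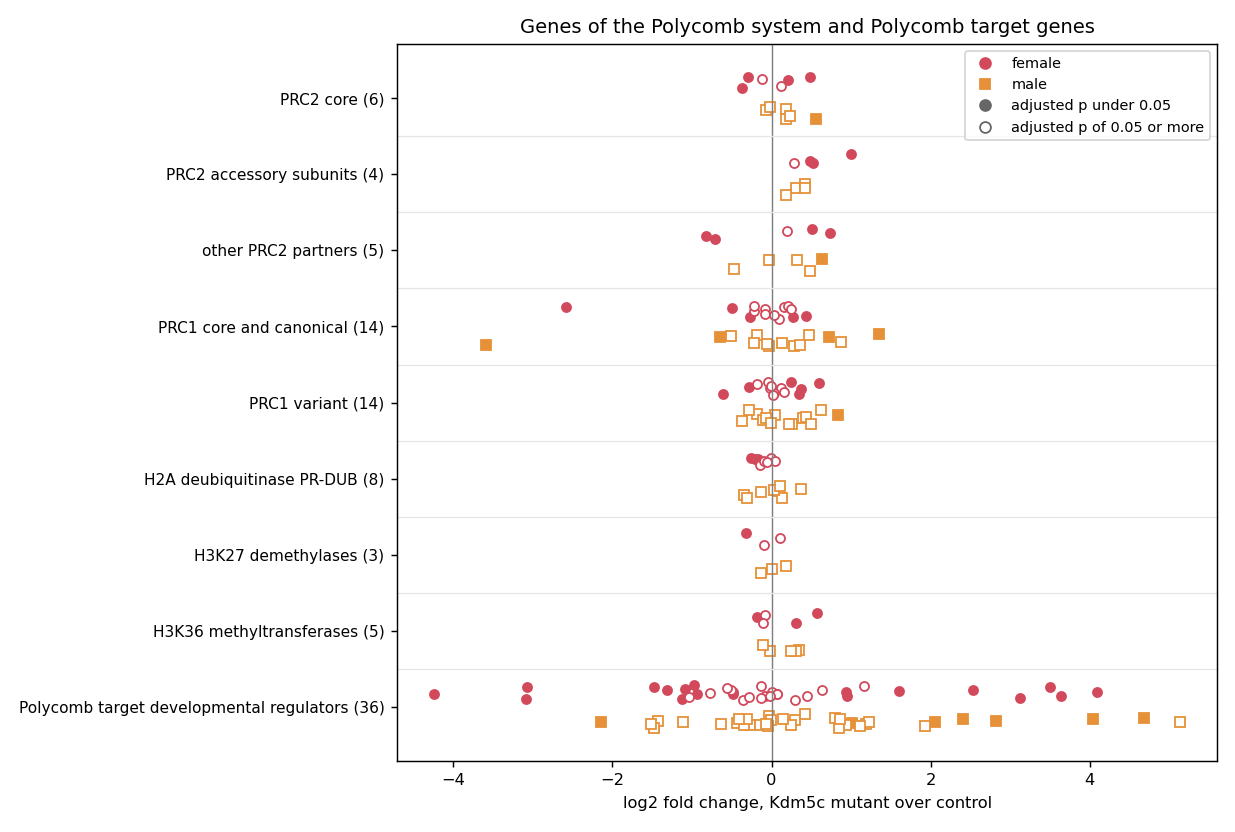
Log2 fold change of each gene in lists of Polycomb genes and of Polycomb target genes in *Kdm5c* mutant over control EpiLCs (the number of genes of each list in parentheses; circles female, squares male; filled symbols passed an adjusted p of 0.05; height within a row is arbitrary). The subunits of PRC2 lie between -0.4 and 1 in both sexes, whereas single targets reach beyond 4.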

How the data were processed

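Mapping and counting were done by the authors: TopHat2 2.1.0 with Bowtie2 2.2.6.0 on mm9, single-end reads of 50 bp, up to 1 mismatch, uniquely mapped reads. DESeq and Cuffdiff are also named in the submitters' processing notes, and HTseq in the study's reporting summary. The gene annotation is not given in the sources used here. The deposited signal values are mean normalized counts per group of 3 libraries, in 1 table per sex. The authors' fold changes, log2 fold changes and p-values, also deposited, were not used.

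Each mean is a sum of 3 whole read numbers divided by their size factors. Solving for them gave exactly 1 solution for all genes whose mean did not exceed 10000 (99.7 to 99.8% of genes and 86.0 to 91.4% of normalized reads per group), and 22808 genes were recovered in all 12 libraries. The solver and the fits were tested on simulated data. The size factors of both tables were 0.988 to 0.999 of those of 1 normalization over 12 libraries, so control groups of both sexes were compared. Sampling precision covers counting error only.

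Limma 3.58.1 (R 4.3.3, intensity trend) was fitted to log2(normalized count + 1) over all recovered genes with reads, within each sex, or over 12 libraries for the difference between the sexes and for the controls, with Benjamini-Hochberg adjustment over all genes tested and a threshold of 0.05. Fold changes are on that scale. Exact permutation tests were two-sided. Alternatives were a pseudocount of 0.1, a minimum mean of 10, limma voom, scaling to library totals or by trimmed means, fits over 12 libraries, and leaving out each library. The fit without male controls A and C was chosen after seeing the data and leaves 1 male control, B, assumed to vary like the other groups of the fit. The design foresaw tests on single libraries only if their reads could be worked out.

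Lengths, positions and uniqueness come from GENCODE vM1 on mm9, promoters from RefSeq. The 10 genes and all lists were chosen with earlier results of these data known. Named genes are the 10, every gene of a list of 5 or fewer, and from longer lists at most 6 per sex that passed 0.05 and had a mean of 10 or more, by size of change. The read numbers were solved with numba 0.67.0 and numpy 2.4.6 under Python 3.11.15, tables were joined with pandas 2.3.3, permutations run with scipy 1.17.1 and figures drawn with matplotlib 3.10.9.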

Additional observations from a re-analysis of the deposited data

Results flagged for a closer look

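The change in *Kdm5c* mutants differed between the sexes, by the interaction term of limma, for 4 of the 10 PRC2 genes, beside 21.2% of the 22014 genes tested. The change in males minus that in females was -0.69 ± 0.13 (log2, SE; adjusted p = 0.0020) for *Jarid2* and 0.53 ± 0.11 (adjusted p = 0.0041) for *Rbbp7*, and both passed in all 12 fits that leave out 1 library. It was 0.35 ± 0.11 (adjusted p = 0.038) for *Ezh2* and -0.33 ± 0.10 (adjusted p = 0.031) for *Mtf2*, which passed in 4 of those 12 fits each. The interaction term shares its control libraries with the comparison of female against male controls. *Rbbp7* (0.50), *Ezh2* (0.30) and *Mtf2* (-0.34) also passed there, so the 2 results are not independent for these genes.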

How the results depend on the processing

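No paired analysis was possible because the libraries worked out from the means carry no replicate number, so the fit with a replicate block was not run. In females the count of 7 PRC2 genes stayed within 7 to 8 without each library (8811 to 9138 of all genes). The fit over all 12 libraries called 6 PRC2 genes and 6493 of all genes. In males the count of 1 was 0 with a pseudocount of 0.1, library totals, limma voom or without controls A and C (0 of all genes), and 3 in the fit over 12 libraries (4766 genes). Without each library it was 0 to 3 (333 to 4691 genes). For *Suz12* in males the adjusted p was 0.051, 0.062 and 0.056 with the first 3 of these. The sex difference passed for 2 to 5 genes (3554 to 7334 of all genes) and the control difference for 3 to 6 (2894 to 8318) without each library, and the latter for 2 (2040) without controls A and C. With a minimum mean of 10 *Eed* passed for the sex difference (adjusted p = 0.045). Signs turned for values near 0: in males *Ezh1* (-0.21 to 0.00073 without each library, 0.20 without A and C), *Ezh2* (-0.070 to 0.016) and *Rbbp4* (-0.045 without A and C). For the sex difference they turned for *Ezh1* (-0.095 to 0.12), *Aebp2* (-0.21 to 0.20, positive without female control B or male mutant A) and *Rbbp4* (-0.0085 to 0.17, and -0.16 without A and C). Between controls they turned for *Suz12* (-0.032 to 0.095, and -0.018 with library totals) and *Rbbp4* (-0.037 without A and C). The values without A and C rest on male control B alone and show neither stability nor its lack. The cause of these shifts was not tested. With 3 libraries a group, exact tests cannot go below 0.1.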
